A study of Mus musculus with 12 samples.

Results

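The tripartite motif (Trim) family was followed in macrophages grown from mouse bone marrow (BMDM) through their response to interferon-beta (Ifn-β). Its members were taken to be all genes whose symbol is Trim followed by a number and at most 1 letter, where the platform annotation gave the transcript cluster, the set of array probes summarised into 1 value, exactly 1 symbol. This gave 44 Trim genes among 14860 genes with exactly 1 symbol and 23332 transcript clusters in all, with 1 cluster for each of the 44. The BMDM were grown from the femurs of male Balb-C mice of 8 to 9 weeks in medium with Csf1, the growth factor of the macrophage lineage, and were treated after 7 days with 10 U/ml of recombinant mouse Ifn-β. RNA was taken 1, 2, 4, 8 and 24 h after Ifn-β and before it was added (0 h). All groups therefore share strain, sex and Csf1, and no untreated cells were cultured alongside, so that time after Ifn-β and time in culture cannot be told apart. Each time was measured on 2 Mouse Exon 1.0 ST arrays, from RNA of 2 wells that the labels also call biological replicates. Whether the wells of a time held cells of different mice or preparations is not stated, so that p-values measure only the spread between these samples, which may be technical. Arrays are named below by the number in their label: 2 and 4 (0 h), 5 and 8 (1 h), 10 and 12 (2 h), 15 and 16 (4 h), 18 and 23 (8 h) and 17 and 22 (24 h).

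Tripartite motif proteins carry a RING finger, 1 or 2 B-boxes and a coiled coil, in that order, although some members lack the RING. The RING makes many of them ubiquitin ligases, which take ubiquitin from a conjugating (E2) enzyme and pass it to a target protein, and the coiled coil pairs the molecules. What follows the coiled coil differs between members and often sets the target: a B30.2/SPRY domain, a PHD finger with a bromodomain, NHL repeats or a COS box, among others. In macrophages the family is known for members that bind virus particles inside the cell, and for members that start or stop the signals from viral nucleic acid to the interferon genes. Many genes that interferon turns on carry the interferon-stimulated response element (ISRE) in their promoters.

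The stretches of promoter that matched an ISRE are shown because 4 of the 5 members that held one were among the genes called higher below. RefSeq promoter windows (GRCm38.p6, 250 bases before to 50 after a transcript's start) were at hand for 34 of the 44 members and 27025 genes in all, and not for Trim3, Trim8, Trim11, Trim14, Trim29, Trim33, Trim35, Trim36, Trim50 and Trim65. Each was searched on both strands, and matches are given for the ISRE core GAAANNGAAA and for the longer form GAAANNGAAACT, which contains the core. Another motif that was searched is not reported here. The lines give the strand of the gene, 5′ to 3′, with the bases of the core in capitals. Where the match lay on the other strand the capitals begin with TTTC. Where 2 cores overlap, both are in capitals.
Trim21 (chr7:102565447-102565476, minus strand): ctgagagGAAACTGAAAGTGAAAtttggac
Trim34a (chr7:104244457-104244486, plus strand): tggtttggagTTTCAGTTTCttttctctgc
Trim30a, start 1 (chr7:104446104-104446133, minus strand): ttgtttttagTTTCTTTTTCtcagttcctg
Trim30a, start 2 (chr7:104465210-104465239, minus strand): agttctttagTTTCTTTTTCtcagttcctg
Trim26 (chr17:36836979-36837008, plus strand): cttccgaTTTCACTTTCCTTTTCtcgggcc
Trim2 (chr3:84212791-84212820, minus strand): tcagctttggTTTCCTTTTCtctaagacag

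The core was in the windows of 3.99% of all genes (1079 of 27025). Among the members it was in 4 of the 7 genes called higher that had a window (Trim21, Trim26, Trim30a and Trim34a), in 0 of the 5 called lower, in 0 of the 4 held within 1.5-fold at all times and in 1 of the 18 others (Trim2). The longer form was in 0.303% of all genes and in Trim30a and Trim34a. Counted from the first transcribed base as 0, the core began at 13 and 19 in Trim21, at 10 in Trim34a, at 2 and, for the other start, at -36 in Trim30a, at -160 and -154 in Trim26, and at 28 in Trim2. These matches describe letters in a window and are no evidence of binding.

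The deposited values are log2 levels, in which a difference of 1 is a 2-fold change. They depend on the probes of a cluster, so that changes are read within a gene, and the place of a cluster among all clusters on an array is only a rough guide to its level. Each time was set against 0 h with limma, a linear model fitted to all 23332 clusters, and a gene was called where the p-value adjusted by Benjamini-Hochberg over all clusters was under 0.05 and the change was at least 1.5-fold (0.585 on the log2 scale). Array medians lay between 5.84 and 5.90. The upper quartile ran between 7.77 and 8.15, and it was lowest on array 12 at 2 h (7.77) and on arrays 15 and 16 at 4 h (7.86 and 7.89), against 8.09 and 7.97 at 0 h. The 2 arrays at 2 h were the furthest apart of any time, with a median absolute difference of 0.30 over all clusters, against 0.13 to 0.17 at the other times, and 32 of the 44 members were lower on array 12 than on array 10. Cell type markers were ranked at 0 h among the 14860 genes with exactly 1 symbol. The 6 measured macrophage markers lay at a median of the 98.3rd percentile (range 52.9 to 99.9). The medians of 7 other cell types' markers lay between 10.3 and 42.6, with single markers up to 88.0 (T cell) and 53.6 (stromal cell). As markers of the response itself, Ifit1, Rsad2, Irf7 and Cxcl10 were called higher at 1, 2, 4 and 8 h, and Actb, Hprt, Tbp, Ywhaz and B2m were called at no time. At 4 h, 1 of 6 macrophage markers was called higher (Fcgr1 by 2.43) and 1 of 6 T cell markers lower (Cd28, -0.64), and the part of other cells in the results was not tested.

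At any of the 5 times, 8 of the 44 members were called higher (Trim14, Trim21, Trim25, Trim26, Trim30a, Trim30b, Trim34a and Trim56), where 4.19% of all clusters were called higher. Another 5 were called lower (Trim24, Trim27, Trim37, Trim47 and Trim59), where 4.96% of all clusters were, and no member was called in both directions. In RNA from whole wells, fewer cells of a type and less RNA per cell cannot be told apart. For 7 members (Trim3, Trim7, Trim11, Trim35, Trim62, Trim66 and Trim69) the 95% intervals of all 5 changes lay within 1.5-fold, which held for 28.4% of all clusters. The remaining 24 were neither called nor held within 1.5-fold. The 13 genes called at any time became 8 without array 2, 7 without array 15 and 8 without array 16, and the genes held within 1.5-fold became 3, 2, 12, 4 and 4 without arrays 2, 4, 12, 16 and 23 in turn.

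At 1 h, 2 members were called higher (Trim21 and Trim25) and 0 lower, against 0.467% and 0.0814% of all clusters. At 2 h, 6 were called higher, with Trim14, Trim30a, Trim34a and Trim56 added, and 0 lower, against 1.54% and 0.621%. At 4 h all 8 were called higher, with Trim26 and Trim30b added, and 3 lower (Trim24, Trim27 and Trim47), against 3.59% and 3.95%. At 8 h, 4 were called higher (Trim14, Trim21, Trim30a and Trim34a) and 1 lower (Trim37), against 1.5% and 0.544%. At 24 h, 2 were called higher (Trim21 and Trim30a) and 1 lower (Trim59), against 0.613% and 0.836%. The median change of the 44 was 0.01 after 1 h, -0.05 after 2 h, -0.15 after 4 h, 0.01 after 8 h and 0.08 after 24 h, beside medians over all clusters of 0.03, -0.01, -0.07, -0.01 and 0.01.

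These counts moved with single arrays. Without array 2, 4, 5 or 8 in turn, 1 member was called at 1 h. Without array 15, 7 were called at 4 h, all of them higher. The 5 calls at 8 h became 2 without array 2, 4, 18 or 23 and 3 without array 5, 8, 15, 16, 17 or 22, and the 3 calls at 24 h became 1 without array 2 or 4 and 0 without array 17 or 22. With quantile normalization applied again, which makes the upper quartiles equal, the split was 6 higher and 3 lower at 2 h and 4 higher and 2 lower at 8 h.

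**Figure D1:**
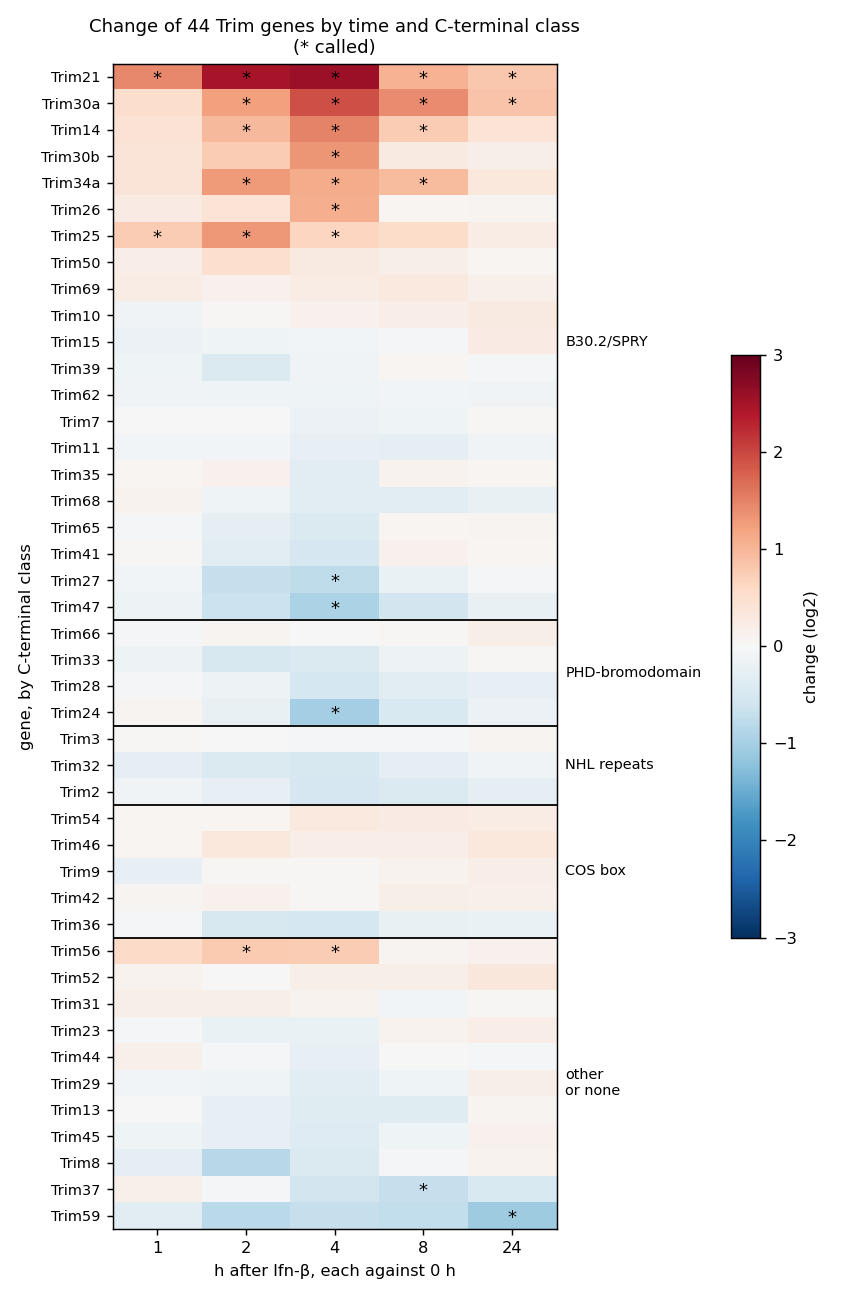
Change on the log2 scale of each of the 44 Trim genes (rows, grouped by the domain after the coiled coil and ordered by the change at 4 h) at 1, 2, 4, 8 and 24 h, each against 0 h (columns). Asterisks mark called changes: 7 of the 8 genes called higher are in the B30.2/SPRY group, which leaves out members with a COS box, and calls are most frequent in the 4 h column, with 11.

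Among the genes called higher, the largest change was that of Trim21, the cytosolic antibody receptor, which binds antibody carried into the cell on a virus and directs both to the proteasome. Its level was 8.26 and 8.06 at 0 h, 9.56 and 9.65 after 1 h, 10.68 and 10.58 after 2 h, 10.76 and 10.71 after 4 h, 9.23 and 9.17 after 8 h, and 9.05 and 8.88 after 24 h. Every array after Ifn-β was above both 0 h arrays. The change against 0 h was 1.44 ± 0.11 (SE, 2.72-fold, adjusted p = 0.000645) at 1 h, 2.47 ± 0.11 (5.54-fold, adjusted p = 8.7e-06) at 2 h and 2.58 ± 0.11 (5.96-fold, adjusted p = 3.97e-06) at 4 h. It was still 1.04 ± 0.11 at 8 h (adjusted p = 0.00182) and 0.81 ± 0.11 at 24 h (adjusted p = 0.0154). The call at 24 h ended without either 0 h array or either 24 h array (adjusted p up to 0.13).

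Trim30a, known in mouse as a brake on NF-κB signalling through the Tab2 and Tab3 adaptors, was also called from 2 h to 24 h. Its level was 10.44 and 10.27 at 0 h, 10.86 and 10.91 after 1 h, 11.62 and 11.55 after 2 h, 12.31 and 12.27 after 4 h, 11.76 and 11.80 after 8 h, and 11.24 and 11.18 after 24 h, with no array after Ifn-β inside the 0 h range. The change was 0.53 ± 0.10 after 1 h (adjusted p = 0.0796, not called), 1.23 ± 0.10 after 2 h (adjusted p = 0.000273), 1.94 ± 0.10 after 4 h (3.82-fold, adjusted p = 9.11e-06), 1.42 ± 0.10 after 8 h (adjusted p = 0.000117) and 0.86 ± 0.10 after 24 h (adjusted p = 0.00643). The call at 24 h ended without either 24 h array (adjusted p up to 0.0777).

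Trim14 has no RING and is known from human cells as an adaptor that sits with Mavs, the signalling protein of the RNA sensors, on mitochondria. Its level was 8.30 and 8.37 at 0 h, 8.78 and 8.78 after 1 h, 9.36 and 9.24 after 2 h, 9.74 and 9.91 after 4 h, 9.06 and 9.13 after 8 h, and 8.85 and 8.64 after 24 h, again above both 0 h arrays throughout. It was called higher at 2 h (0.96 ± 0.11, adjusted p = 0.00288), at 4 h (1.49 ± 0.11, 2.81-fold, adjusted p = 0.000105) and at 8 h (0.76 ± 0.11, adjusted p = 0.0115). The call at 8 h ended without any single 0 h or 8 h array (adjusted p up to 0.106).

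Trim25, the ligase that modifies the RNA sensor Ddx58 (RIG-I), had its highest mean at 2 h. Its level was 9.51 and 9.43 at 0 h, 10.25 and 10.22 after 1 h, 10.81 and 10.73 after 2 h, 10.09 and 10.12 after 4 h, 10.00 and 10.02 after 8 h, and 9.74 and 9.63 after 24 h. The change was 0.77 ± 0.09 at 1 h (adjusted p = 0.00914), 1.3 ± 0.09 at 2 h (2.46-fold, adjusted p = 0.000132) and 0.64 ± 0.09 at 4 h (adjusted p = 0.00426). At 8 h it was 0.54 ± 0.09, with an adjusted p of 0.0235, and so below the 1.5-fold limit. The call at 1 h ended without any single 0 h or 1 h array (adjusted p up to 0.111).

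Trim34a, a relative of the retroviral restriction factor TRIM5 of primates, was at 6.91 and 6.83 at 0 h, 7.30 and 7.23 after 1 h, 8.41 and 7.89 after 2 h, 7.97 and 8.01 after 4 h, 7.71 and 7.93 after 8 h, and 7.22 and 7.13 after 24 h. It was called higher at 2 h (1.28 ± 0.17, 2.43-fold, adjusted p = 0.00511), 4 h (1.12 ± 0.17, adjusted p = 0.0045) and 8 h (0.95 ± 0.17, adjusted p = 0.0251), and the call at 8 h ended without any 1 of the 10 arrays outside 2 h (adjusted p up to 0.172). Both arrays at 2 h were above both 0 h arrays, although they differed from each other by more than those of any other time.

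Trim26, reported to lower Irf3-driven Ifn-β production, was called at 4 h alone. Its level was 8.72 and 8.84 after 4 h, against 7.72 and 7.64 at 0 h, and it was 7.99 and 7.88 after 1 h, 8.26 and 7.93 after 2 h, 7.72 and 7.74 after 8 h, and 7.82 and 7.69 after 24 h. The arrays at 8 h overlapped those at 0 h. The change at 4 h was 1.10 ± 0.13 (2.14-fold, adjusted p = 0.00134), and it was kept without every single array.

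Trim30b, a neighbour and relative of Trim30a, lay below the array median on all 12 arrays, the only 1 of the 8 to do so. Its level was 4.59 and 4.86 at 4 h, against 3.32 and 3.49 at 0 h, a change of 1.32 ± 0.23 (2.50-fold, adjusted p = 0.00895). The other arrays read 4.14 and 3.44 after 1 h, 4.13 and 4.20 after 2 h, 3.50 and 3.84 after 8 h, and 3.64 and 3.52 after 24 h. The 4 h call ended without array 2 or array 16 (adjusted p up to 0.0727).

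Trim56, a ligase reported to act in the DNA-sensing pathway of Sting1, was the 1 gene called higher with no B30.2/SPRY domain. Its level was 8.11 and 7.76 at 0 h, 8.50 and 8.50 after 1 h, 8.87 and 8.59 after 2 h, 8.64 and 8.75 after 4 h, 8.00 and 8.04 after 8 h, and 8.22 and 7.90 after 24 h, so that its arrays at 8 and 24 h overlapped those at 0 h. The change was 0.80 ± 0.16 at 2 h (adjusted p = 0.0471) and 0.76 ± 0.16 at 4 h (adjusted p = 0.0231). The call at 2 h ended without any single array of the 12 (adjusted p up to 0.222) and that at 4 h without array 4, 15 or 16 (adjusted p up to 0.133).

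**Figure D2:**
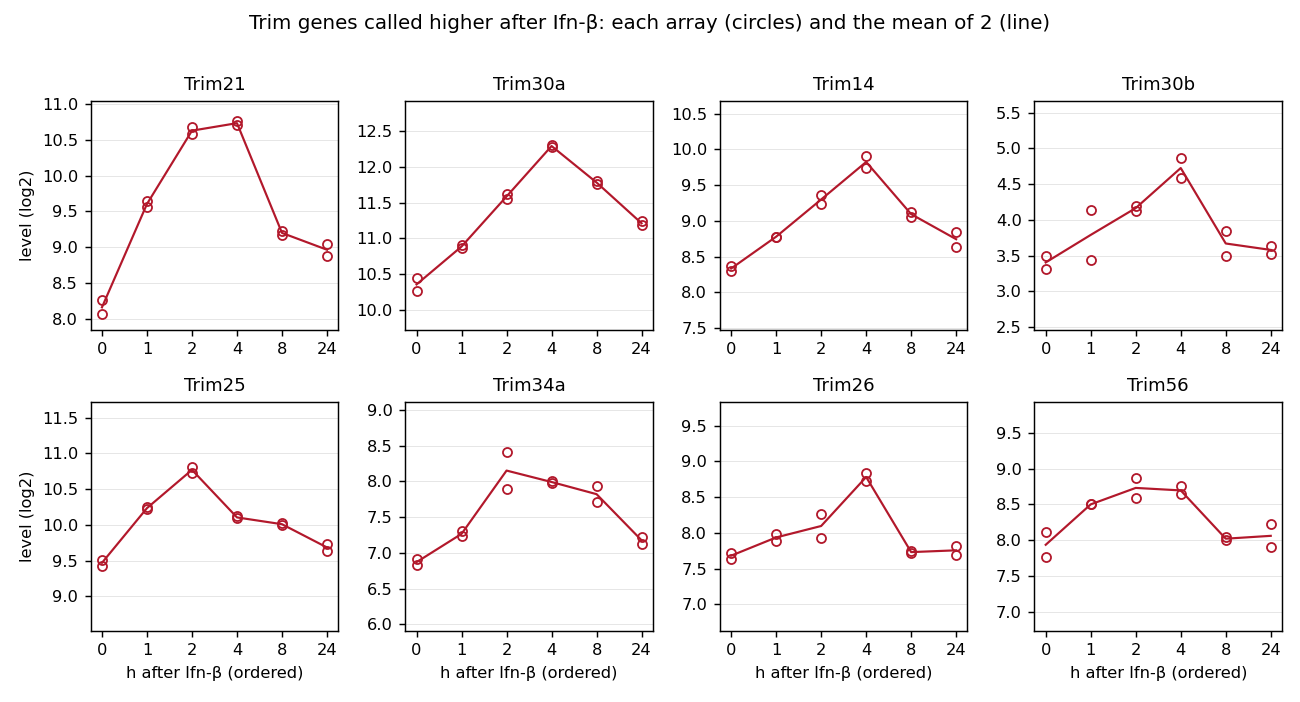
Level (log2) of the 8 Trim genes called higher, by hours after Ifn-β in order of time and not to scale, with a circle for each of the 2 arrays of a time and a line through their means. The vertical axes span the same number of log2 units and start at different levels: 5 genes have their highest mean at 4 h and 3 (Trim25, Trim34a and Trim56) at 2 h. Of the 8, only Trim25, Trim26 and Trim30a were called between these 2 times.

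Neighbouring times were compared to see when these levels moved. In 2 h against 1 h, 2 members were called higher (Trim21 by 1.02 ± 0.11, adjusted p = 0.00838, and Trim30a by 0.70 ± 0.10, adjusted p = 0.0247) and 0 lower, against 0.369% and 0.0814% of all clusters. In 4 h against 2 h, 2 were called higher (Trim30a by 0.71 ± 0.10, adjusted p = 0.0113, and Trim26 by 0.69 ± 0.13, adjusted p = 0.0348) and 2 lower (Trim25, -0.66 ± 0.09, adjusted p = 0.0113, and Trim24, -0.82 ± 0.17, adjusted p = 0.0469), against 1.38% and 0.789%. Trim25 was therefore already lower at 4 h than at 2 h while Trim30a was still higher. For Trim21 the same difference was 0.11 ± 0.11 (95% interval -0.15 to 0.36), for Trim34a -0.16 ± 0.17 (-0.54 to 0.22) and for Trim56 -0.04 ± 0.16 (-0.40 to 0.33), so that their 2 and 4 h levels could not be ordered. Trim14 (0.53 ± 0.11, adjusted p = 0.058) and Trim30b (0.56 ± 0.23, adjusted p = 0.302) were not called in 4 h against 2 h.

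In 8 h against 4 h, 1 member was called higher (Trim41 by 0.63 ± 0.13, adjusted p = 0.0423) and 4 lower, against 1.68% and 1.62% of all clusters. The 4 were Trim21 (-1.54 ± 0.11, adjusted p = 0.000531), Trim26 (-1.05 ± 0.13, adjusted p = 0.00389), Trim14 (-0.73 ± 0.11, adjusted p = 0.0109) and Trim30b (-1.06 ± 0.23, adjusted p = 0.0423). Trim30a was under the 1.5-fold limit (-0.51 ± 0.10, adjusted p = 0.0281), and for Trim34a the difference was -0.17 ± 0.17 (95% interval -0.55 to 0.21). In 24 h against 8 h, 0 members were called in either direction by limma, against 0.210% of all clusters higher and 1.00% lower, and 0 higher and 1 lower passed 1.5-fold at an unadjusted p under 0.05.

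Of these calls between neighbouring times, those of Trim21 and Trim26 in 8 h against 4 h were kept without every single array. In 2 h against 1 h, the 2 calls became 0 without array 5 or 8, 1 without array 15, 16, 17, 18, 22 or 23 and 5 without array 10. In 4 h against 2 h, the 4 calls became 0 without array 15 or 16 and 2 without array 2, 4, 5, 8, 17, 18, 22 or 23. In 8 h against 4 h, the 5 calls became 2 without array 15, 16, 18 or 23 and 3 without array 2, 4, 17 or 22. With each array centred on its median, the split was 2 higher and 1 lower in 4 h against 2 h and 0 higher and 4 lower in 8 h against 4 h, Trim41 being lost, and with quantile normalization applied again it was 0 higher and 5 lower in 8 h against 4 h.

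The 5 members called lower were called at 1 time each on the values as deposited, 3 of them at 4 h, 1 at 8 h and 1 at 24 h. Trim24, a PHD-bromodomain cofactor of nuclear receptors that restrains interferon signalling in mouse liver, was at 6.29 and 6.37 at 4 h, against 7.52 and 7.20 at 0 h. Its other arrays read 7.47 and 7.42 after 1 h, 7.38 and 6.91 after 2 h, 6.88 and 6.92 after 8 h, and 7.22 and 7.16 after 24 h, and after 24 h array 22, at 7.16, was still below both 0 h arrays while array 17 was not. The change at 4 h was -1.03 ± 0.17 (2.04-fold lower, adjusted p = 0.00664), and the call ended without array 2 or 15 (adjusted p up to 0.0578).

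Trim47, a B30.2/SPRY member, read 6.48 and 6.79 after 4 h, against 7.56 and 7.59 at 0 h, with 7.55 and 7.28 after 1 h, 7.06 and 6.82 after 2 h, 6.94 and 7.12 after 8 h, and 7.40 and 7.32 after 24 h. All arrays after Ifn-β were below both 0 h arrays. The change at 4 h was -0.94 ± 0.15 (1.92-fold lower, adjusted p = 0.00683), and the call ended without array 15 (adjusted p = 0.061). Trim27, a nuclear ligase also known as RET finger protein, read 8.28 and 8.31 after 4 h, against 9.09 and 9.01 at 0 h, with 8.99 and 8.95 after 1 h, 8.64 and 8.07 after 2 h, 8.72 and 8.98 after 8 h, and 9.04 and 8.93 after 24 h. The change at 4 h was -0.76 ± 0.18 (1.69-fold lower, adjusted p = 0.0351), and the call ended without any 1 of the 10 arrays outside 2 h (adjusted p up to 0.178).

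Trim37, whose loss in humans causes the growth disorder mulibrey nanism, read 8.03 and 8.01 after 8 h, against 8.83 and 8.59 at 0 h, with 8.91 and 8.83 after 1 h, 8.78 and 8.54 after 2 h, 8.22 and 8.11 after 4 h, and 8.30 and 8.21 after 24 h. From 4 h on every array was below both 0 h arrays. The change was -0.69 ± 0.12 at 8 h (1.61-fold lower, adjusted p = 0.0298) and -0.55 ± 0.12 at 4 h (adjusted p = 0.0309, under 1.5-fold). Trim59, a membrane-anchored RING protein, read 7.89 and 7.84 after 24 h, against 8.92 and 8.92 at 0 h, with 8.64 and 8.51 after 1 h, 8.43 and 7.78 after 2 h, 8.23 and 8.21 after 4 h, and 8.21 and 8.16 after 8 h. It was below both 0 h arrays on every array after Ifn-β, and the change at 24 h was -1.06 ± 0.18 (2.08-fold lower, adjusted p = 0.034). The calls of Trim37 and Trim59 each ended without any 1 of the 10 arrays outside 2 h (adjusted p up to 0.202 and 0.203). With the suffix of the array title as a covariate, the calls of Trim27, Trim37 and Trim59 ended, and so did those of Trim21 at 24 h, Trim34a at 8 h and Trim56 at 2 h. What this suffix stands for is not known. Its 2 forms were taken as 1. Both arrays at 8 h carry it and no array at 0 or 2 h does, so that in 8 h against 0 h time and suffix change together. The covariate was therefore estimated from the arrays at 1, 4 and 24 h alone.

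**Figure D3:**
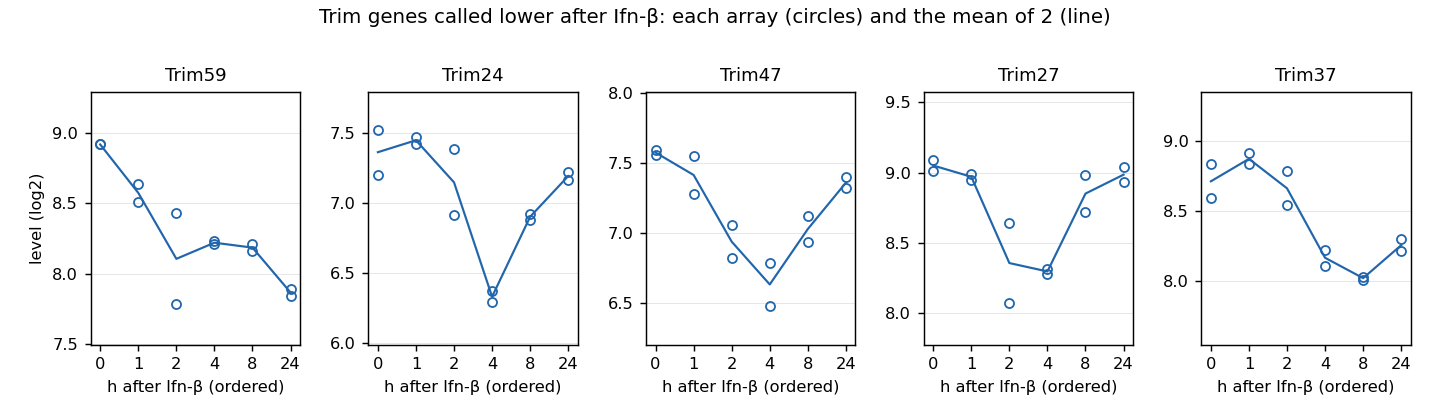
Level (log2) of the 5 Trim genes called lower, by hours after Ifn-β in order of time and not to scale, with a circle for each array and a line through the means of 2. The vertical axes span the same number of log2 units: Trim24, Trim27 and Trim47 have their lowest mean at 4 h, Trim37 at 8 h and Trim59 at 24 h.

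Arrays 15 and 16, which hold the 4 h values, also had low upper quartiles, and the 2 move together. With quantile normalization applied again, the changes at 4 h against 0 h were -0.89 for Trim24 (adjusted p = 0.000559), -0.78 for Trim47 (adjusted p = 0.00361) and -0.66 for Trim27 (adjusted p = 0.00321), and all 3 were called. Under the same setting Trim27 was also called lower at 2 h (-0.67, adjusted p = 0.00764), and Trim59 was called lower at 4 times, with changes of -0.79 after 2 h, -0.60 after 4 h, -0.71 after 8 h and -1.04 after 24 h (adjusted p = 0.00356, 0.00545, 0.00563 and 0.00143). Over the 27 called changes against 0 h, this setting shifted the change by -0.07 to 0.17 and turned 0 signs, and centring each array on its median shifted it by 0.02 to 0.06 and turned 0 signs. Without array 10, which left array 12 alone at 2 h, the 2 h calls were 5 higher and 4 lower, and without array 12 they were 5 higher and 0 lower, where they were 6 higher and 0 lower with both.

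On the 2 sides of the 4 h threshold on adjusted p stood Trim27 (-0.76, adjusted p = 0.0351) and Trim65 (-0.44 ± 0.11, adjusted p = 0.0428, under 1.5-fold) inside it and Trim59 (-0.70 ± 0.18, adjusted p = 0.0514) and Trim41 (-0.49 ± 0.13, adjusted p = 0.0583) outside it. Trim28, the PHD-bromodomain corepressor of retroelements known as Kap1, was at -0.52 ± 0.11 with an adjusted p of 0.0196, also under 1.5-fold.

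**Figure D4:**
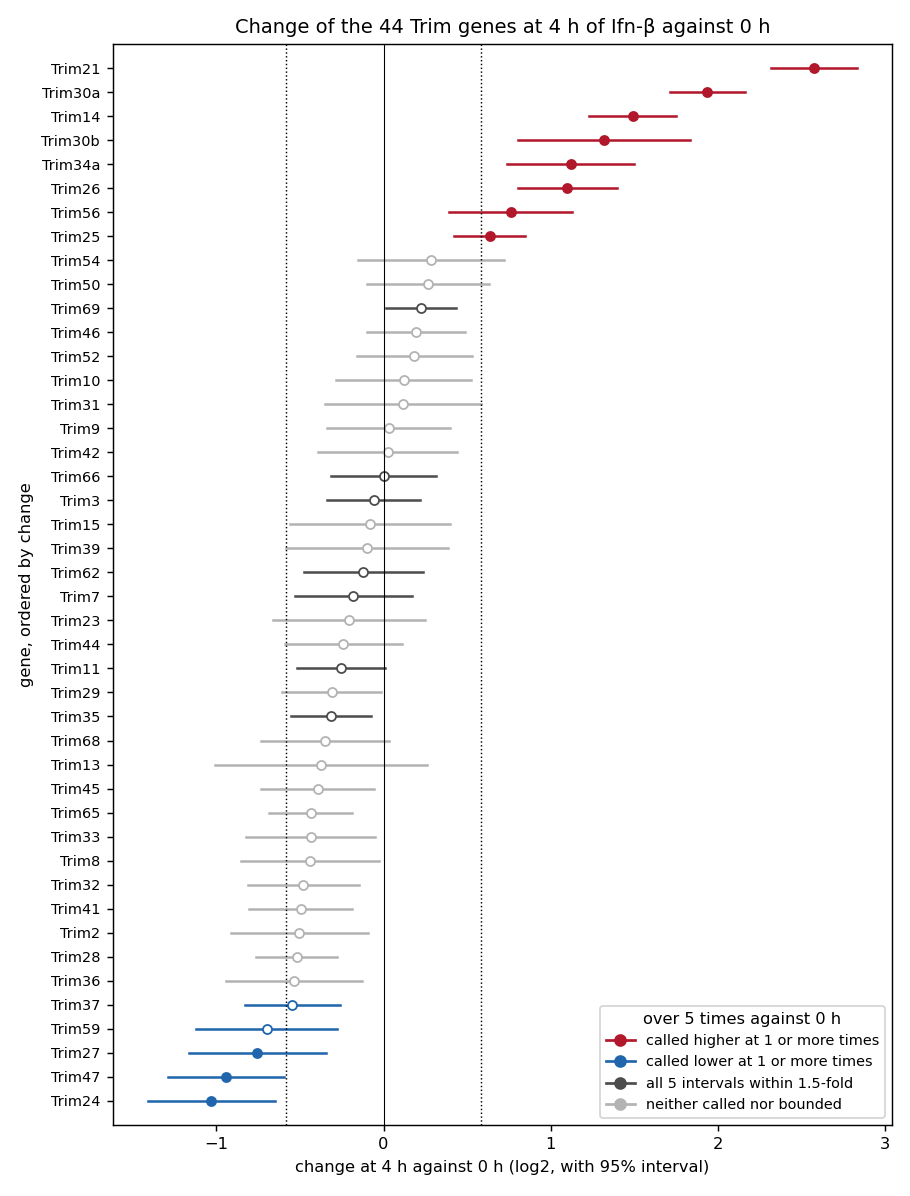
Change at 4 h against 0 h (log2) of all 44 Trim genes, ordered by size, with 95% intervals from limma; filled points are called at 4 h, dotted lines mark 1.5-fold and colours give the class over all 5 times. The 8 genes called higher stand above all others, from 0.64 to 2.58, and the 3 called lower lie between -1.03 and -0.76.

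The members held within 1.5-fold at all 5 times are the ones for which these arrays bound the measured change. Of the 7, 3 lay below the array median on all arrays (Trim7, Trim66 and Trim69), and whether their signal stood above background was not tested. Trim35, reported to act on Irf7, was at 9.74 ± 0.06 (SD, n = 2) at 0 h and between 9.41 and 9.95 on all 12 arrays. Its changes lay between -0.32 (at 4 h) and 0.13, with interval bounds of -0.56 and 0.37. Trim3, an NHL-repeat member known from neurons, was at 7.39 ± 0.01 at 0 h and between 7.28 and 7.55 on all arrays, the narrowest range of the 7, with changes between -0.06 and 0.08 and interval bounds of -0.34 and 0.36. Trim11, reported from human cells to limit the inflammasome sensor AIM2, was at 7.38 ± 0.05 at 0 h, with changes between -0.29 and -0.08 and interval bounds of -0.55 and 0.18.

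Of the other 4, Trim62 was at 6.12 ± 0.02 at 0 h with interval bounds of -0.49 and 0.27, and Trim66, a PHD-bromodomain member without a RING, at 5.17 ± 0.13 with bounds of -0.35 and 0.48. Trim7, which binds glycogenin, the primer of glycogen, was at 4.44 ± 0.10 with bounds of -0.53 and 0.38, and Trim69 at 3.50 ± 0.06 with bounds of -0.09 and 0.50. All 5 changes of Trim69 lay between 0.12 and 0.30, while Trim3 and Trim66 had changes on both sides of 0. Every array of Trim69 after Ifn-β, from 3.60 to 3.82, was above both 0 h arrays (3.46 and 3.54). Its intervals lay above 0 at 1, 4 and 8 h (lower bounds 0.01, 0.02 and 0.09) and included 0 at 2 and 24 h. Trim69 is therefore bounded within 1.5-fold but not shown to be constant. The share of all clusters with such a separation of arrays is not given. The 7 ranged over 0.27 to 0.54 log2 units across the 12 arrays. Trim21, by comparison, was 2.58 higher at 4 h than at 0 h.

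**Figure D5:**
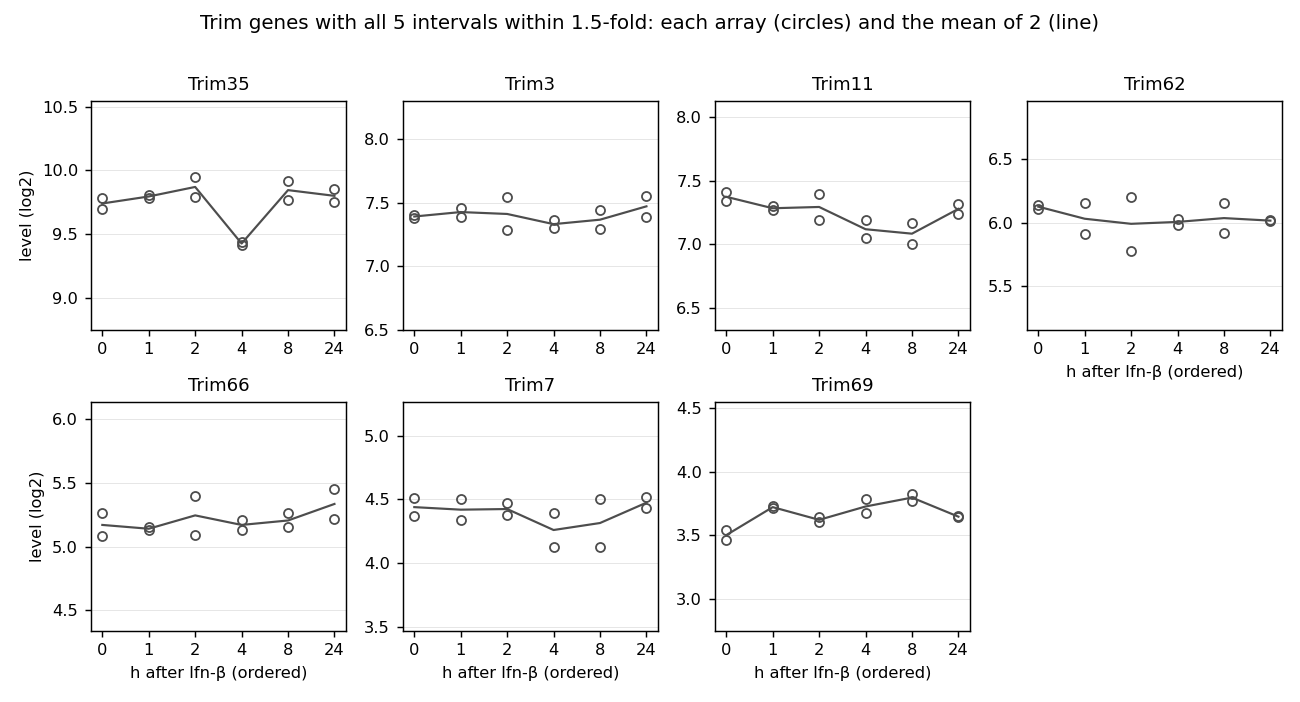
Level (log2) of the 7 Trim genes whose 95% intervals lay within 1.5-fold at all 5 times, by hours after Ifn-β in order of time and not to scale, with a circle for each array and a line through the means of 2. The vertical axes span as many log2 units as those of the genes called lower: the 12 arrays of each gene stay within 0.54 units, and the widest span is that of Trim35, which is lowest at 4 h.

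The 24 members that were neither called nor bounded are not to be read as constant. Their changes lay between -0.83 (Trim8 at 2 h) and 0.50 (Trim50 at 2 h), and 8 lay below the array median on all arrays. At 4 h, 16 of the 24 were below 0, where the median over all clusters was -0.07. For 22 of the 24 all intervals lay within 2-fold, and the other 2 were Trim8 and Trim13, whose intervals reached -1.25 and -1.01. Trim8, reported to raise NF-κB activation through Map3k7, was at 8.22 and 7.65 at 2 h, against 8.76 and 8.78 at 0 h, a change of -0.83 ± 0.18 that missed the threshold (adjusted p = 0.0633). Its level was 8.50 and 8.51 after 1 h, 8.23 and 8.43 after 4 h, 8.64 and 8.85 after 8 h, and 8.94 and 8.80 after 24 h, and both 2 h arrays were below every array at 0, 1, 8 and 24 h.

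The members were also put into exclusive groups by the domains after the coiled coil, with any member that has a COS box under that name, although some of these (Trim9, Trim36 and Trim46) also carry a B30.2/SPRY domain. In the B30.2/SPRY group of 21, 7 were called higher, 2 lower and 5 held within 1.5-fold, where 4.19% of all clusters were called higher, 4.96% lower and 28.4% held within 1.5-fold. The 4 PHD-bromodomain members comprised 1 called lower (Trim24), 1 held within 1.5-fold (Trim66) and 2 others (Trim28 and Trim33). Of the 3 NHL-repeat members, 1 was held within 1.5-fold (Trim3), and of the 5 COS-box members, a box known for binding microtubules, 0 were called. These groups hold only genes named Trim. The microtubule-bound relative Mid1, called higher below, was not put into any of them. In the 11 with another domain or none, 1 was called higher (Trim56) and 2 lower (Trim37 and Trim59). At 4 h the median change was -0.08 over the B30.2/SPRY group, -0.48 over the PHD-bromodomain members, -0.48 over the NHL-repeat members, 0.03 over the COS-box members and -0.31 over the rest, beside -0.07 over all clusters.

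By position, 4 of the 8 genes called higher lie on chromosome 7 (Trim21, Trim30a, Trim30b and Trim34a), which holds 8 of the 44 members. In the RefSeq order of protein-coding genes (GRCm38.p6), 10 Trim genes from Trim6 to Trim30d follow each other there with 1 other gene among them. Of these 10, 3 were measured as members (Trim34a, Trim30b and Trim30a). All 3 were called higher at some time, where 4.19% of all clusters were. Whether their probes also bind a neighbour's transcript was not tested, since probe sequences were not used here. The members Trim3, Trim21, Trim28, Trim66 and Trim68 lie on the same chromosome outside this run, and of these only Trim21 was called against 0 h. Trim68, the nearest measured member to Trim21, was at -0.35 ± 0.17 at 4 h (adjusted p = 0.255). On chromosome 17, which holds 5 members, Trim26 was called higher and Trim10, Trim15, Trim31 and Trim39 were not called.

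A list of Trim genes with a reported part in antiviral defence or interferon signalling was chosen with earlier results of these data known. It is not complete. Trim24 (called lower) and Trim35 (held within 1.5-fold), for which such a part is named above, are not on it. The 15 measured genes of the list included 6 of the 8 called higher (Trim14, Trim21, Trim25, Trim26, Trim30a and Trim56), 1 called lower (Trim27) and 8 never called. Of all clusters, 4.19% were called higher and 4.96% lower at any time. The 8 were Trim8, Trim11, Trim13, Trim23, Trim28, Trim32, Trim65 and Trim68, and at 4 h each of them had a change below 0, between -0.52 (Trim28) and -0.20 (Trim23). These 8 are what was left once the called genes were set aside. Most clusters on the arrays also lay below 0 at 4 h, where the median over all clusters was -0.07. Trim65, which modifies the RNA sensor Ifih1, and Trim32, which modifies Sting1, were at -0.44 ± 0.11 and -0.48 ± 0.14 (adjusted p = 0.0428 and 0.083). The median change of the 15 at 4 h was -0.26, beside -0.07 over all clusters.

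The relatives, pathway genes and E2 enzymes that follow were chosen with earlier results of these data known. Of 5 measured relatives that carry all or some of the tripartite motif domains under other names, 3 were called higher and 0 lower at any time, against 4.19% and 4.96% of all clusters. The 3 were Pml, the scaffold of nuclear bodies, Mid1, a microtubule-bound ligase, and Rnf135, which modifies Ddx58 as Trim25 does. Pml averaged 9.91 after 4 h, against 8.04 at 0 h (change 1.87 ± 0.10, adjusted p = 1.59e-05), Rnf135 averaged 8.46 after 4 h, against 6.89 at 0 h (1.58 ± 0.16, adjusted p = 0.000527) and Mid1 8.59 after 4 h, against 7.20 at 0 h (1.39 ± 0.10, adjusted p = 6.91e-05). Pml and Mid1 were already called at 2 h (1.22 ± 0.10 and 0.79 ± 0.10, adjusted p = 0.000427 and 0.00412), and Pml was still called at 8 h (0.94 ± 0.10, adjusted p = 0.00204). Mefv and Bspry were not called at any time, with changes at 4 h of 0.10 ± 0.12 and 0.17 ± 0.14.

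Of 19 measured genes for the sensing pathways that Trim ligases act on, 6 were called higher at some time and 0 lower, against 4.19% and 4.96% of all clusters. The RNA sensors Ddx58 and Ifih1 were called at all 5 times, with changes at 4 h of 2.86 ± 0.11 (adjusted p = 1.41e-06) and 3.46 ± 0.10 (adjusted p = 3.64e-07), and so was the transcription factor Irf7 (2.53 ± 0.13 at 4 h, adjusted p = 8.25e-06). The DNA sensor Cgas was called at 1, 2 and 4 h, its partner Sting1 at 2, 4 and 8 h (1.12 ± 0.11 at 4 h, adjusted p = 0.000404) and Irf8 at 2 h (0.91 ± 0.13, adjusted p = 0.0078). The adaptors and kinases Mavs, Traf6, Tbk1, Ikbke, Ikbkg, Map3k7, Tab1, Tab2 and Tank were called at no time, and neither were Irf3, Ddx41, Cyld and Rnf125. Of 10 measured E2 enzymes that serve Trim ligases, 2 were called higher and 0 lower at any time, against 4.19% and 4.96% of all clusters: Ube2l6, also the conjugating enzyme of Isg15, at 4 h (0.93 ± 0.09, adjusted p = 0.000522) and 8 h (1.14 ± 0.09, adjusted p = 0.000307), and Ube2e1 at 4 h (0.76 ± 0.19, adjusted p = 0.0471). Ube2n, Ube2d1, Ube2d2a, Ube2d3, Ube2e2, Ube2e3, Ube2k and Ube2w were not called.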

How the data were processed

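The deposited values are log2 levels of 23332 transcript clusters on 12 arrays, which the authors made by RMA in Expression Console at the gene level, per the labels and the submitters' processing notes. RMA corrects background, normalizes quantiles and summarises probes by median polish. Versions and the genome build are not given in the sources used here. The values were used as deposited, with 0 value columns left unmapped.

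Genes came from the platform annotation (14996 clusters with 1 symbol, 1019 with several, 7317 with none). Times were compared by limma 3.58.1 in R 4.3.3 over all 12 arrays and 6 times (6 residual and 2.31 prior degrees of freedom), two-sided, with Benjamini-Hochberg adjustment within a comparison. Intervals are 95% intervals of that fit. Arrays have no read depth, and their number limits the precision. Tables and plots used Python 3.11.15, pandas 2.3.3, numpy 2.4.6 and matplotlib 3.10.9.

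The genes named are all members called against 0 h, the up to 8 members held within 1.5-fold with the highest 0 h mean (7 were found), the 2 members on each side of the 4 h threshold by adjusted p, the antiviral members, and relatives and called pathway genes. Trim41 at 8 h, Trim8 at 2 h, Trim28 at 4 h and Trim50 were also singled out after their values were seen. Members and lists were chosen with earlier results of these data known.

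The alternatives tried were other thresholds, intervals, scalings and filters, a fit of only the times compared, other variance models, array weights, the suffix of the array title as a covariate, and each array left out in turn. An item withheld for evaluation is not reported here.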

Additional observations from a re-analysis of the deposited data

Results flagged for a closer look

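Another 7 transcript clusters carry a Trim symbol together with at least 1 other symbol and so belong to no named gene here. Of these, 2 were called higher and 1 lower at any time against 0 h, where 4.19% of all clusters were called higher and 4.96% lower. Cluster 6970066, whose annotation joins 1 Trim symbol with 1 other gene, stood out because its signal lay outside the genes compared above and exceeded that at 0 h. Its mean was 9.38 at 4 h, against 4.13 at 0 h, a change of 5.25 ± 0.22 (SE, limma, adjusted p = 3.51e-06), and it was also called at 2 h (2.88 ± 0.22), 8 h (4.01 ± 0.22) and 24 h (2.6 ± 0.22). Cluster 6970045, whose annotation lists 3 Trim genes, was picked out for the same reason, with a mean of 9.41 at 4 h, against 7.74 at 0 h, a change of 1.68 ± 0.15 (adjusted p = 0.000237). Cluster 6970053, whose annotation also lists 3 Trim genes, was called at no time (0.64 ± 0.27 at 4 h, adjusted p = 0.201). Which of the listed genes gave these signals was not tested.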

How the results depend on the processing

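None of the 38 called changes of members (27 against 0 h and 11 between neighbouring times) turned its sign under the alternatives run for it. Those of Trim30b had 1 alternative fewer, the filter on low clusters, which leaves it out. Without each array in turn 16 of the 38 kept their call throughout, all of them of Trim14, Trim21, Trim25, Trim26, Trim30a and Trim34a, and under the other settings 11 did. With arrays left out in turn, the members called ranged from 1 to 2 after 1 h, 5 to 9 after 2 h, 7 to 12 after 4 h, 2 to 6 after 8 h and 0 to 3 after 24 h, each against 0 h. They ranged from 0 to 5 in 2 h against 1 h, 0 to 4 in 4 h against 2 h, 2 to 6 in 8 h against 4 h, 0 to 1 in 24 h against 8 h, 7 to 15 at any time, and 2 to 12 for those held within 1.5-fold. Where 1 array of a time was left, its spread was taken from the remaining times.

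With only the 2 times compared in the fit, which leaves 2 residual degrees of freedom, the calls were 0 after 1 h, 1 after 2 h, 1 after 8 h and 0 after 24 h, 0 in 2 h against 1 h, 0 in 4 h against 2 h and 2 in 8 h against 4 h, with 2 members held within 1.5-fold. A 2-fold threshold left 1 after 1 h, 7 after 4 h, 2 after 8 h, 1 after 24 h, 1 in 2 h against 1 h, 0 in 4 h against 2 h and 3 in 8 h against 4 h. An unadjusted p gave 11 at 2 h, 4 in 2 h against 1 h and 1 in 24 h against 8 h, where dropping the fold threshold, array weights and repeated quantile normalization also gave 1. Array weights gave 0 in 2 h against 1 h and 0 in 4 h against 2 h. Repeated quantile normalization gave 4 in 2 h against 1 h and 14 held within 1.5-fold, and fitting only clusters with 1 symbol gave 10 at 2 h. With the title suffix as a covariate there were 3 after 8 h, 1 after 24 h, 1 in 2 h against 1 h, 2 in 4 h against 2 h and 3 in 8 h against 4 h. Both arrays at 8 h carry this suffix and no array at 0 or 2 h does. A 2-fold bound held 30 members and 99% intervals held 1. Counts that stayed within 1.5-fold of the main count are left out here, and the shares of all clusters called under each setting are not given. The cause of these differences was not tested. No paired analysis was possible because the array numbers are not shared between times.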
